A study of Homo sapiens with 12 samples.

Results

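The genes described here are 44 cyclins, cyclin-dependent kinases (CDKs) and regulators of the cell cycle, of 20046 protein-coding genes in GENCODE release 44. They were taken from a fixed list of names, and a cluster was given to a gene when its midpoint lay within that gene on the same strand. The data are PAR-CLIP clusters from 12 libraries of wildtype HepG2, an established human hepatocellular line of epithelial-like cells. In PAR-CLIP, cells take up 4-thiouridine, ultraviolet light links protein to the RNA it touches, RNase T1 trims the RNA after G and the linked fragments are immunoprecipitated and sequenced. There were 2 libraries each for IGF2BP1, IGF2BP2, METTL1 and WDR4, and 4 for IGF2BP3, of which 2 carry the label bio2. No library came from treated or mutant cells, and all came from 1 cell line. A cluster is an interval called in 1 library, and the deposited intervals carry no height, read number or conversion number, so that the depth behind a cluster is unknown and the lack of a cluster sets no upper limit on binding. RNA levels were not used here, and their part in which genes carry clusters was not tested.

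Cyclins are the regulatory subunits that switch on CDKs, and the waves of cyclin-CDK activity drive entry into and passage through the cell cycle. D cyclins with CDK4 and CDK6 phosphorylate the RB proteins and free the E2F factors to transcribe S phase genes, while CDKN1A (p21) and CDKN1B (p27) hold the kinases back. A second branch of the family, with CCNT1, CDK9, CDK12 and CDK13, acts on RNA polymerase II rather than on the cell cycle itself. IGF2BP1, IGF2BP2 and IGF2BP3 are cytoplasmic RNA-binding proteins that were tested in this study as readers of internal N7-methylguanosine (m7G), and METTL1 with its partner WDR4 forms the methyltransferase that writes this mark. The question was which of these transcripts the readers and the writers touched, and where.

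In all, 383 clusters of 102250 lay in the 44 genes, from 19 to 64 in a library, or 24.3 to 43.4 per 10000 clusters. The libraries differed in size, from 4581 clusters in IGF2BP2 replicate 1 to 15701 in IGF2BP1 replicate 2. Of the hepatocyte genes checked, 7 of 8 had an exonic cluster, while immune, fibroblast, endothelial and glial genes had none. The labels number replicates but do not say which were separate cultures. The paper's methods give each replicate its own set of plates, but do not say whether the numbered replicates of a label are meant. The p-values thus measure the spread between these libraries, which may be technical.

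The sites that recurred in the largest number of libraries are given by sequence. None of the 12 labels names a control pulldown. Sequence recovered with any antibody therefore cannot be told apart from binding, also where many libraries share a site. For each gene whose most shared exonic site lay in at least 4 libraries, the 30 nt at the best covered part of that site, or of each such site where several tied, are given in hg38, 5' to 3' on the transcript strand, with CATA, CATC and CATT (CAU followed by A, C or U in RNA, a motif known for IGF2BPs) in capitals. A CCNG1 coding site is added because all 8 IGF2BP libraries and no METTL1 or WDR4 library held it. The number of libraries is that of the whole merged site. In the CDK6 site at most 9 libraries shared a base, and in the CDKN1A site at most 6.
CCND1 3' UTR, chr11:69652263-69652292 (plus strand), 6 libraries: cttcttCATAttctaaaacCATTcCATTtc
CDK4 3' UTR, chr12:57748325-57748354 (minus strand), 9 libraries: ttctccttctccttccCATTtctctacact
CDK6 3' UTR, chr7:92606495-92606524 (minus strand), 10 libraries: ccaaCATCcccacacctctaCATCtctgtc
CCNB1 coding sequence, chr5:69177234-69177263 (plus strand), 6 libraries: cttagacaccaactctacaaCATTacctgt
CCNG1 5' UTR, chr5:163437668-163437697 (plus strand), 10 libraries: agtccccctccccgggcctctctcctcttg
CCNG1 coding sequence, chr5:163442524-163442553 (plus strand), 8 libraries: agaataactcaccttccaacaattcctgaa
CCNT1 coding sequence, site 1, chr12:48693643-48693672 (minus strand), 10 libraries: atctaatCATCATCATCATCATAatcacca
CCNT1 coding sequence, site 2, chr12:48693405-48693434 (minus strand), 10 libraries: agtactaaatcctcttccctaaatttctcc
CCNT1 3' UTR, chr12:48688849-48688878 (minus strand), 10 libraries: ttcccaccctacttcacacacctaaaactc
CCNT2 coding sequence, chr2:134954411-134954440 (plus strand), 6 libraries: gcagtatatatcctctcacaactctgtttt
CDK12 coding sequence, chr17:39471436-39471465 (plus strand), 7 libraries: ccccaccccctctaccaactactacccctc
CDK12 3' UTR, chr17:39531528-39531557 (plus strand), 7 libraries: cagaaCATTtacttcaactctaccttagta
CDK13 3' UTR, chr7:40096428-40096457 (plus strand), 5 libraries: ctctcacaCATAcacacacaattatactaa
CCNYL1 3' UTR, chr2:207755019-207755048 (plus strand), 6 libraries: gctactacactccaacctggacaacgttat
CDKN1A 3' UTR, chr6:36686079-36686108 (plus strand), 7 libraries: ttcctctctcccggaggttgggtgggccgg
CDKN1B 5' UTR, chr12:12717741-12717770 (plus strand), 4 libraries: cttccgagaggggttcgggctgcgtagggg
RBL1 coding sequence, chr20:37003826-37003855 (minus strand), 5 libraries: accactctctccttttccaCATAttaaaca
E2F3 3' UTR, chr6:20492513-20492542 (plus strand), 4 libraries: ttttcccCATTtccCATAtttatctCATCt
No exonic site was held by all 12 libraries, and 10 was the largest number. The sites at 10 were in CCNG1, CCNT1 and CDK6. A CAU motif stood in the CCND1, CDK4, CDK6, CCNB1, CCNT1 coding site 1, CDK12 3' UTR, CDK13, RBL1 and E2F3 windows. The CCNG1 and CDKN1B windows in the 5' UTR had none. Neither had the windows of CCNG1 coding sequence, CCNT1 coding site 2, CCNT1 3' UTR, CCNT2, CDK12 coding sequence, CCNYL1 and CDKN1A.

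Exonic clusters, that is clusters in coding sequence, UTRs or other exons, were found in 27 of the 44 genes (61.4%), against 31.1% of all protein-coding genes. The share was 54.5% in the IGF2BP libraries (all genes 26.1%) and 45.5% in the METTL1 and WDR4 libraries (all genes 19.2%). In each of the 12 libraries the share was higher for the cell cycle genes than for all genes, from 18.2% against 7.8% in METTL1 replicate 1 to 47.7% against 19.9% in IGF2BP1 replicate 2. The genes were listed with earlier results of these data known, so that these shares are a description. Transcript length moved with them: the 27 genes with an exonic cluster had a median 3' UTR of 1822 nt and the 17 without one of 1232 nt, against 1029 nt for all genes, and its part in the shares was not tested. By region, a 3' UTR cluster was found in 20 of the 44 genes (all genes 22%), in 19 by the IGF2BP libraries (19.4%) and in 9 by METTL1 and WDR4 (12.2%). A coding sequence cluster was found in 16 (13%), in 13 by IGF2BP (10.3%) and in 9 by METTL1 and WDR4 (6.15%), a 5' UTR cluster in 6 (3.36%) and an intronic cluster in 20 (29.3%). With introns included, 32 genes had a cluster (44.4%). Among 47 other cell cycle genes, such as PLK1, AURKA and CDC20, 16 (34%) had an exonic cluster.

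**Figure D1:**
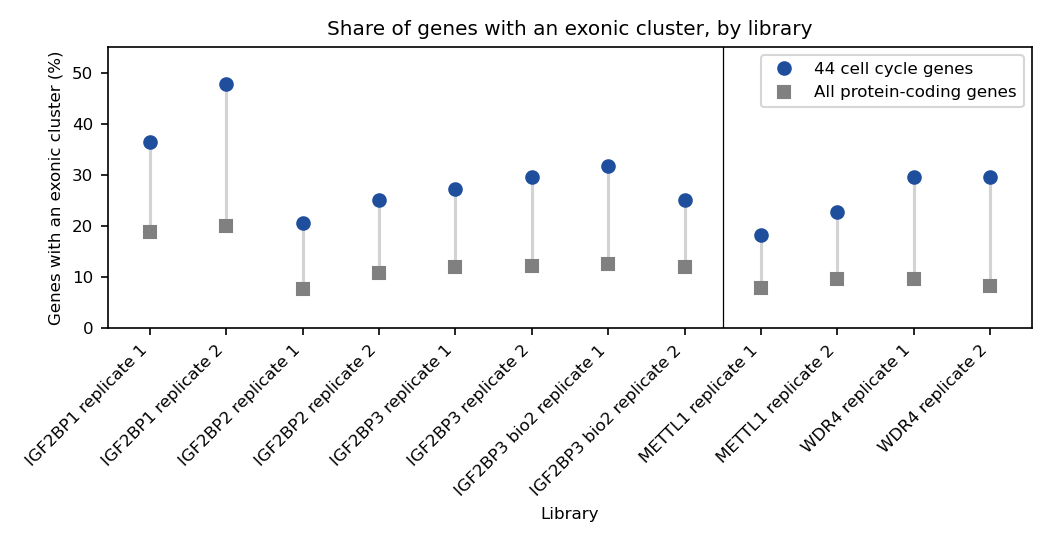
Share of genes with at least 1 exonic cluster (y axis, percent) in each of the 12 libraries (x axis), for the 44 cell cycle genes (circles) and for all 20046 protein-coding genes (squares). The circles lie above the squares in every library, with the largest shares in IGF2BP1 replicate 2 (47.7% and 19.9%).

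The clusters were unevenly spread. CDK6 held 50 of the 305 exonic clusters (16.4%), CDK12 39, CDKN1A 34, CCNT1 33 and CCNG1 29, and these 5 genes made up 60.7%. CCNG1, CCNT1 and CDK12 had an exonic cluster in all 12 libraries, which held for 1.17% of all genes, and 8 genes had one in at least 8 libraries (6.6%). An exonic site that overlapped between at least 2 libraries of the same protein, called reproducible here, was present in 21 of the 44 genes (all genes 19.5%). By protein, 16 genes had one for IGF2BP1 (all genes 16.1%), 16 for IGF2BP3 (14.2%), 5 for IGF2BP2 (5.97%), 8 for WDR4 (3.38%) and 4 for METTL1 (2.95%). IGF2BP3 had 4 libraries in which to find a pair, and the IGF2BP1 libraries held the most clusters. CCNG1 and CCNT1 had a reproducible site for each of the 5 proteins, against 1.53% of all genes.

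**Figure D2:**
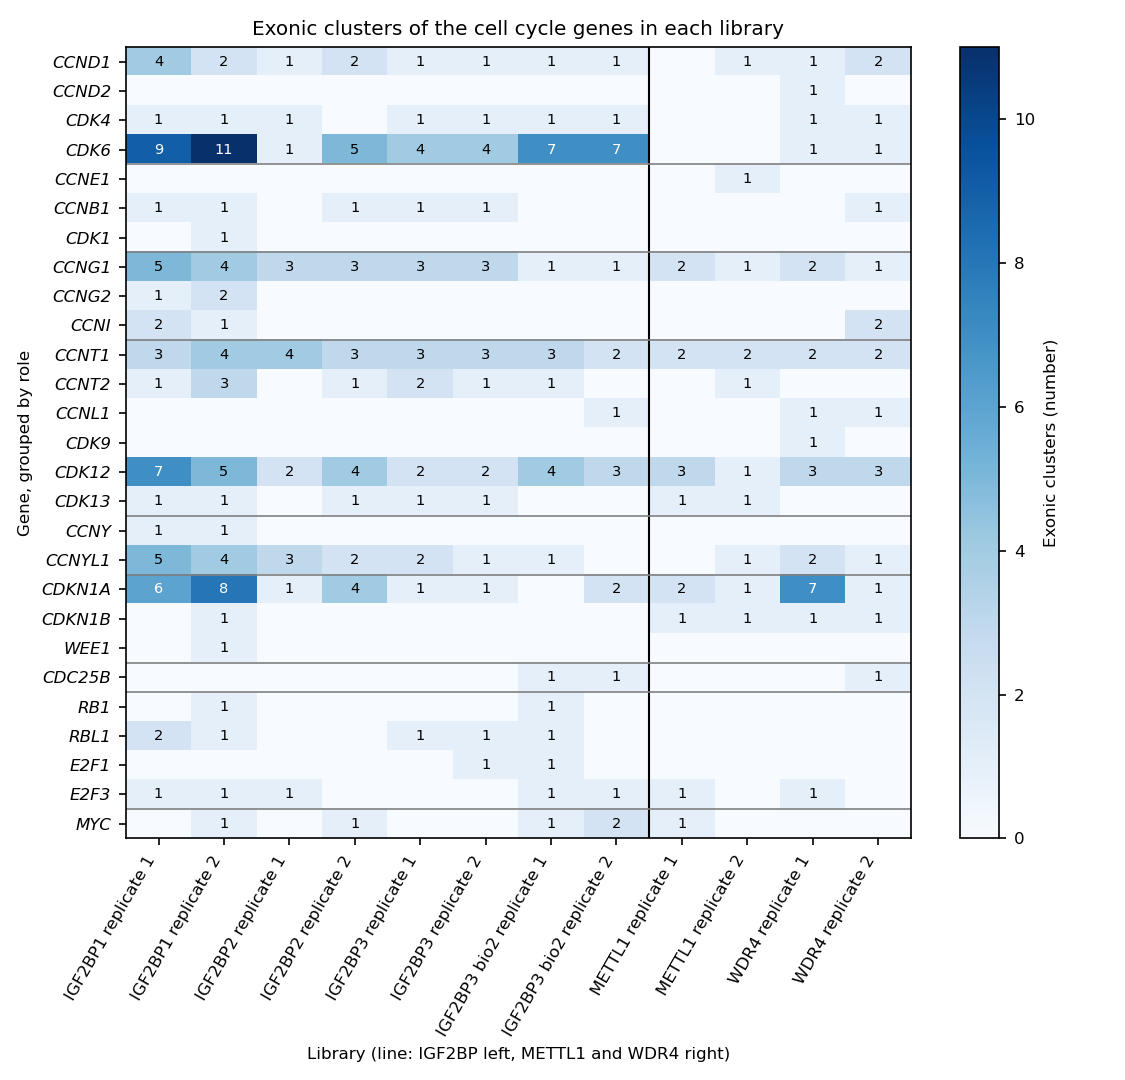
Number of exonic clusters (shade and digit, empty for 0) of the 27 cell cycle genes that had any (rows, grouped by role) in each of the 12 libraries (columns, IGF2BP left of the line, METTL1 and WDR4 right of it). CDK6 reaches 11 in IGF2BP1 replicate 2 and stays at 0 or 1 in the METTL1 and WDR4 libraries, while CDKN1B shows 1 in each of those.

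In the D cyclins and their kinases, all 77 exonic clusters lay in the 3' UTR, in 4 of the 5 genes of this group. CDK6, the kinase partner of D cyclins with by far the longest 3' UTR of the group (10222 nt), had 9 and 11 exonic clusters in the IGF2BP1 libraries, 1 and 5 in IGF2BP2, 4 and 4 in IGF2BP3, 7 and 7 in IGF2BP3 bio2, 0 and 0 in METTL1 and 1 and 1 in WDR4. All IGF2BP libraries lay above the METTL1 and WDR4 libraries once scaled to library size: 2.18 to 11.6 against 0 to 1.09 per 10000 clusters. The mean was 7.08 ± 2.98 (SD, n = 8) in the first and 0.528 ± 0.61 (SD, n = 4) in the second group, 6.55 apart (exact permutation test over 495 splits, p = 0.00202, adjusted p = 0.0432 over 3188 genes). Of the genes tested, 4.23% were called higher in the IGF2BP libraries, and in 7.31% all IGF2BP libraries lay above the others. That p is the smallest this design can give, and the call was lost when any library but IGF2BP2 replicate 1 was left out (adjusted p = 0.0529 to 0.117 by the same permutation test), with differences of 5.90 to 6.74. The test treats the libraries as exchangeable, though they are repeats of 5 proteins. With proteins as units CDK6 was not called (difference 6.03, exact permutation test, p = 0.1, adjusted p = 0.54). In number of 3' UTR clusters in the 8 IGF2BP libraries, CDK6 ranked at 30 of 3879 genes with 48 clusters. Per length it was less unusual, at 4.89 clusters per kb of 3' UTR over the 12 libraries, above 75.7% of genes with a 3' UTR cluster.

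The CDK6 clusters fell into 16 sites, of which 11 were reproducible and 15 were held by IGF2BP libraries alone. One site, 8634 nt after the stop codon, merged clusters of all 8 IGF2BP libraries and both WDR4 libraries, and it is the CDK6 site shown above. At most 9 of these libraries shared a base of it. A site at 4561 nt was held by 7 IGF2BP libraries, and those at 1641 and 8727 nt by 6 each. Other sites belonged to 1 label: those at 1065, 2129 and 9285 nt were seen in both bio2 libraries and nowhere else, and those at 1488 and 3659 nt in both IGF2BP1 libraries and nowhere else. The bio2 libraries also held the highest scaled values, and without them the difference was 5.16 (exact permutation test, adjusted p = 0.0602).

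**Figure D3:**
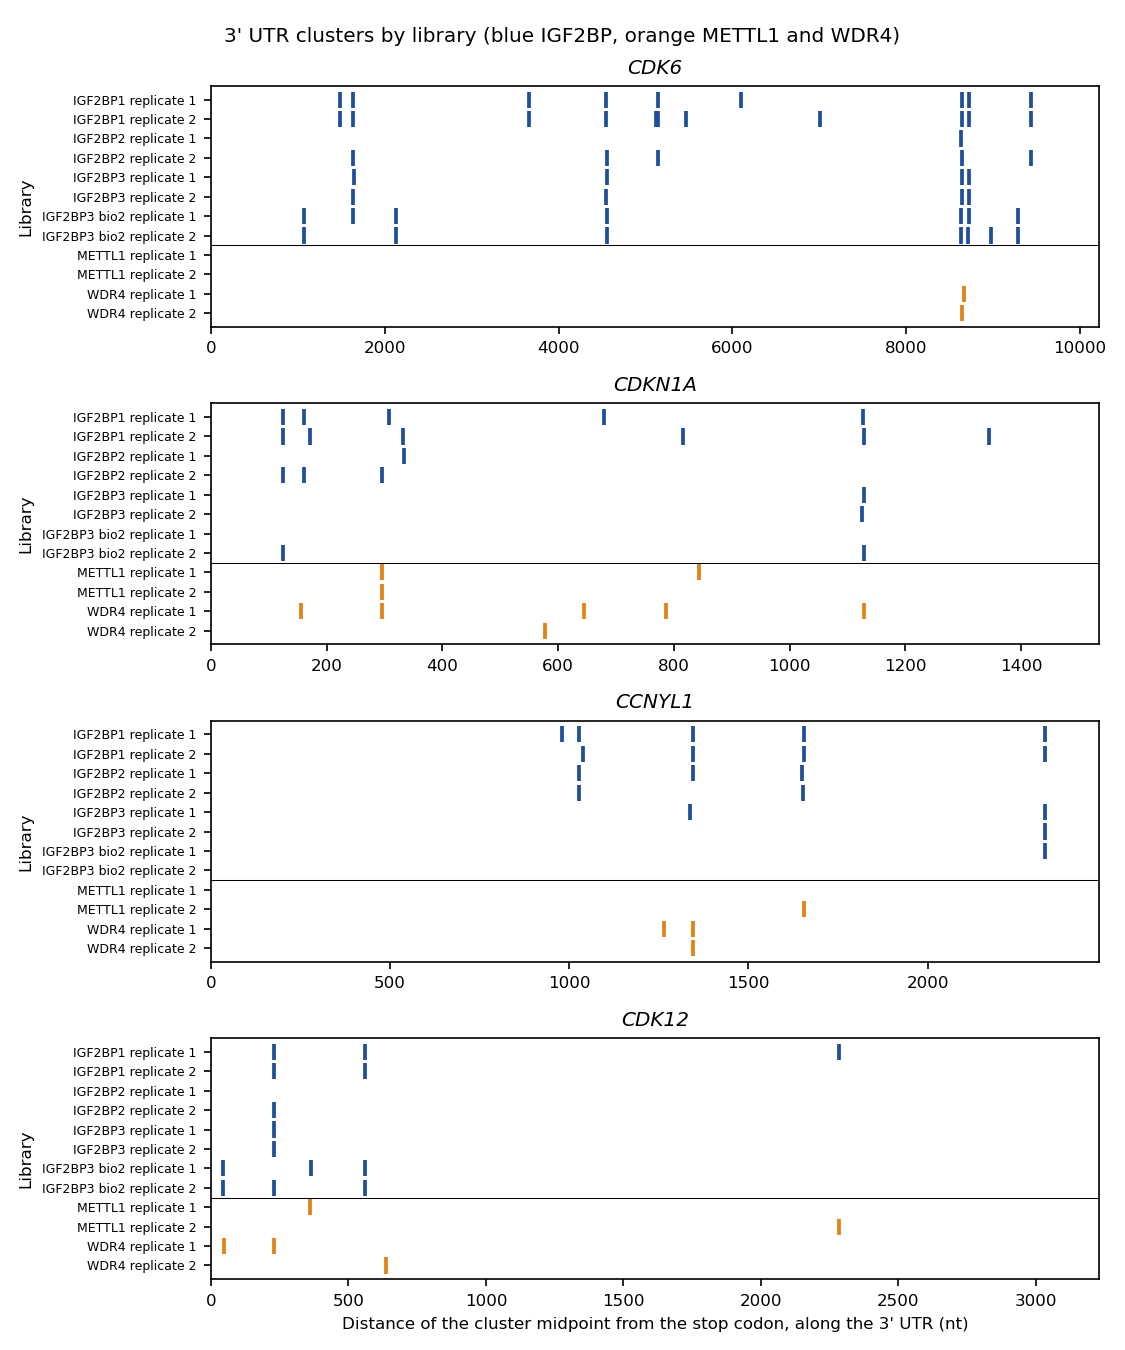
Midpoints of 3' UTR clusters of CDK6, CDKN1A, CCNYL1 and CDK12 (panels) in the 12 libraries (rows), at their distance from the stop codon in nt (x axis, the full 3' UTR), blue for IGF2BP and orange for METTL1 and WDR4. In CDK6 marks line up across the IGF2BP libraries near 1641, 4561 and 8634 nt, and the WDR4 marks sit at the last of these.

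CCND1 encodes cyclin D1, the mitogen-responsive D cyclin. It had 4 and 2 exonic clusters in IGF2BP1, 1 and 2 in IGF2BP2, 1 in each of the 4 IGF2BP3 libraries, 0 and 1 in METTL1 and 1 and 2 in WDR4, and the groups overlapped (difference 0.80 per 10000, exact permutation test, adjusted p = 0.251). Its site at 998 nt after the stop codon was in 6 IGF2BP libraries. Another at 1516 nt, in both IGF2BP1, both WDR4 and 1 IGF2BP3 library, was a CA repeat whose central 20 nt occur 16098 times in the genome. Its placement may be uncertain. Reads with several equally good placements were kept up to a set limit, and how many placements these reads had is not known. CDK4, the other D cyclin kinase, had exactly 1 exonic cluster in 9 libraries, all at 1 site 189 nt after the stop codon, and 0 in IGF2BP2 replicate 2 and both METTL1 libraries (difference 0.69 per 10000, exact permutation test, adjusted p = 0.288). With a 3' UTR of 801 nt, this gave 11.2 clusters per kb, above 91.4% of genes with a 3' UTR cluster. CCND2 had 1 cluster, in WDR4 replicate 1, in a stretch that another annotated gene shares. CCND3 had none.

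The 7 cyclins and kinases of S phase and mitosis had no 3' UTR cluster, where 22% of all genes had one. With so few genes this is a count and sets them apart in no way. Their 3' UTRs ran from 171 nt in CCNB2 to 1411 nt in CCNE2, against a median of 1029 nt for all genes. The part of length was not tested. Of CCNE1, CCNE2, CCNA2, CCNB1, CCNB2, CDK1 and CDK2, 3 had an exonic cluster (all genes 31.1%), with 8 clusters in all. CCNB1, the cyclin that drives entry into mitosis with CDK1, held 6 of these at 1 coding site, with 1 cluster in both IGF2BP1 libraries, in IGF2BP2 replicate 2, in IGF2BP3 replicates 1 and 2 and in WDR4 replicate 2, and 0 in the other 6 libraries (difference 0.44 per 10000, exact permutation test, adjusted p = 0.454). CCNE1 had 1 cluster, in the 5' UTR in METTL1 replicate 2, and CDK1 had 1 in coding sequence in IGF2BP1 replicate 2. No cluster was listed for CCNE2, CCNA2, CCNB2 and CDK2.

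Cyclins G and I, which are less tied to the cell cycle, all carried exonic clusters. CCNG1, a target of the DNA damage response, had 5 and 4 exonic clusters in IGF2BP1, 3 and 3 in IGF2BP2, 3 and 3 in IGF2BP3, 1 and 1 in bio2, 2 and 1 in METTL1 and 2 and 1 in WDR4. The groups overlapped (difference 1.77 per 10000, exact permutation test, adjusted p = 0.235), but the regions were divided unequally. Of its 5' UTR sites, that 106 nt before the start codon was held by 10 libraries, lacking the bio2 pair alone. It was the 1 exonic site of the 44 genes reproducible for all 5 proteins. The other, 51 nt before the start codon, was held by 3 libraries, replicate 1 of IGF2BP1, of METTL1 and of WDR4. Of its coding sites, that shown above was in 8 of 8 IGF2BP libraries and 0 of 4 others, and another was in both IGF2BP1 libraries alone. Its 3' UTR site, 408 nt after the stop codon, was in 6 IGF2BP libraries and 0 others. CCNG2 had 1 and 2 clusters in the IGF2BP1 libraries and none elsewhere. CCNI had 2 and 1 in IGF2BP1 and 2 in WDR4 replicate 2, with 0 in the other 9 libraries.

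Among the transcription cyclins and kinases, 6 of 10 genes carried 93 exonic clusters. CCNT1, the cyclin of the elongation factor P-TEFb, was the most even, with 3 and 4 exonic clusters in IGF2BP1, 4 and 3 in IGF2BP2, 3 and 3 in IGF2BP3, 3 and 2 in bio2 and 2 in each METTL1 and WDR4 library. The scaled values were 4.30 ± 2.03 (SD, n = 8) and 2.39 ± 0.436 (SD, n = 4) per 10000, and the difference of 1.91 did not pass (exact permutation test, adjusted p = 0.251). All 4 of its sites were held by both kinds of library. The first coding site is a run of CAT triplets that 8 IGF2BP and both METTL1 libraries held, and its central 20 nt occur at a median of 6 places in the genome. The second coding site and the 3' UTR site, 4173 nt after the stop codon, had centres found once in the genome and lay in 10 libraries each, the latter in all 8 IGF2BP and both WDR4 libraries.

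CDK12, which phosphorylates the tail of RNA polymerase II in long genes, had 7 and 5 exonic clusters in IGF2BP1, 2 and 4 in IGF2BP2, 2 and 2 in IGF2BP3, 4 and 3 in bio2, 3 and 1 in METTL1 and 3 and 3 in WDR4 (difference 1.36 per 10000, exact permutation test, adjusted p = 0.272). They were spread over 13 sites, with 19 clusters in the 3' UTR, 11 in the 5' UTR and 9 in coding sequence, and no site was in more than 7 libraries. CDK13, its close relative, had 1 cluster in both IGF2BP1 libraries, IGF2BP2 replicate 2, IGF2BP3 replicates 1 and 2 and both METTL1 libraries, and 0 in the others, with the METTL1 clusters at other places than the shared 3' UTR site, whose central 20 nt occur at a median of 8 places in the genome. CCNT2, the second P-TEFb cyclin, had 1 and 3 in IGF2BP1, 0 and 1 in IGF2BP2, 2 and 1 in IGF2BP3, 1 and 0 in bio2, 0 and 1 in METTL1 and 0 in WDR4. Neither passed the exact permutation test (adjusted p = 0.925 for CDK13 and 0.285 for CCNT2). CCNL1, a cyclin of splicing speckles, had 1 in each WDR4 library at 1 site and 1 in IGF2BP3 bio2 replicate 2. All lay in exons of other transcripts of the gene, outside the coding sequence and UTRs of its protein-coding transcripts. CDK9 had 1 cluster, in WDR4 replicate 1. CCNK had none, and CDK7, CDK8 and CDK19 had intronic clusters alone.

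In the cyclin Y branch, CCNYL1 held 22 of 24 exonic clusters. It had 5 and 4 in IGF2BP1, 3 and 2 in IGF2BP2, 2 and 1 in IGF2BP3, 1 and 0 in bio2, 0 and 1 in METTL1 and 2 and 1 in WDR4, all in the 3' UTR (difference 1.59 per 10000, exact permutation test, adjusted p = 0.318). At 8.87 clusters per kb its 3' UTR stood above 88% of genes with such a cluster. Its sites were unique in part, as the central 20 nt occurred at a median of 3 to 21 places for 3 of its 4 reproducible sites, and over clusters with a unique centre the difference was -0.24. CCNY had 1 cluster in each IGF2BP1 library, at 1 site across the stop codon, with the midpoint in the 3' UTR in replicate 1 and in coding sequence in replicate 2. CDK14 had intronic clusters alone, and CDK16 and CDK17 had none.

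Among the inhibitors, CDKN1B stood opposite to CDK6. CDKN1B, the p27 inhibitor that holds cells in quiescence, had 1 exonic cluster in each METTL1 and WDR4 library, all at 1 site in the 5' UTR 84 nt before the start codon. None of the 8 IGF2BP libraries had a cluster there, and IGF2BP1 replicate 2 had its 1 cluster in the 3' UTR. The scaled values were 1.02 to 1.51 in the METTL1 and WDR4 libraries and 0 to 0.637 in the IGF2BP libraries, with means of 1.19 ± 0.218 (SD, n = 4) and 0.0796 ± 0.225 (SD, n = 8). The difference of -1.12 reached the smallest p (exact permutation test, p = 0.00202, adjusted p = 0.0432), and CDKN1B was the 1 cell cycle gene called higher in the METTL1 and WDR4 libraries, where 0.439% of tested genes were so called and 0.439% showed no overlap in that direction. CDKN1B reached the minimum of 4 libraries through the METTL1 and WDR4 libraries, where it is high, and CDK6 through the IGF2BP libraries. With no such minimum neither was called (exact permutation test, adjusted p = 0.0844 for both). Nor was either called with proteins as units, where 0 genes passed. The CDKN1B call rests on 4 clusters and was lost when any library but IGF2BP2 replicate 1 was left out (exact permutation test, adjusted p = 0.0529 to 0.117), with differences from -1.19 to -1.01.

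CDKN1A is the p21 inhibitor induced by DNA damage. At 18.2 clusters per kb of 3' UTR, it was the densest of the set, above 96% of genes with a 3' UTR cluster. It had 6 and 8 exonic clusters in IGF2BP1, 1 and 4 in IGF2BP2, 1 and 1 in IGF2BP3, 0 and 2 in bio2, 2 and 1 in METTL1 and 7 and 1 in WDR4. The WDR4 replicates thus stood far apart, the group means were 2.89 ± 1.90 (SD, n = 8) and 3.11 ± 2.85 (SD, n = 4) per 10000, and the groups overlapped throughout (difference -0.22, exact permutation test, adjusted p = 0.915; 1.13 without WDR4 replicate 1). Its 12 sites comprised 5 held by both kinds of library. The most shared, 296 nt after the stop codon, merged clusters of both IGF2BP1, both IGF2BP2, both METTL1 and 1 WDR4 library and none of IGF2BP3. At most 6 of these libraries shared a base, and the IGF2BP2 clusters, centred at 333 and 296 nt, did not overlap each other. The site at 1128 nt was in both IGF2BP1, 3 IGF2BP3 and 1 WDR4 library. WEE1, the kinase that restrains CDK1, had 1 cluster, in IGF2BP1 replicate 2, and CDKN2C had none.

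**Figure D4:**
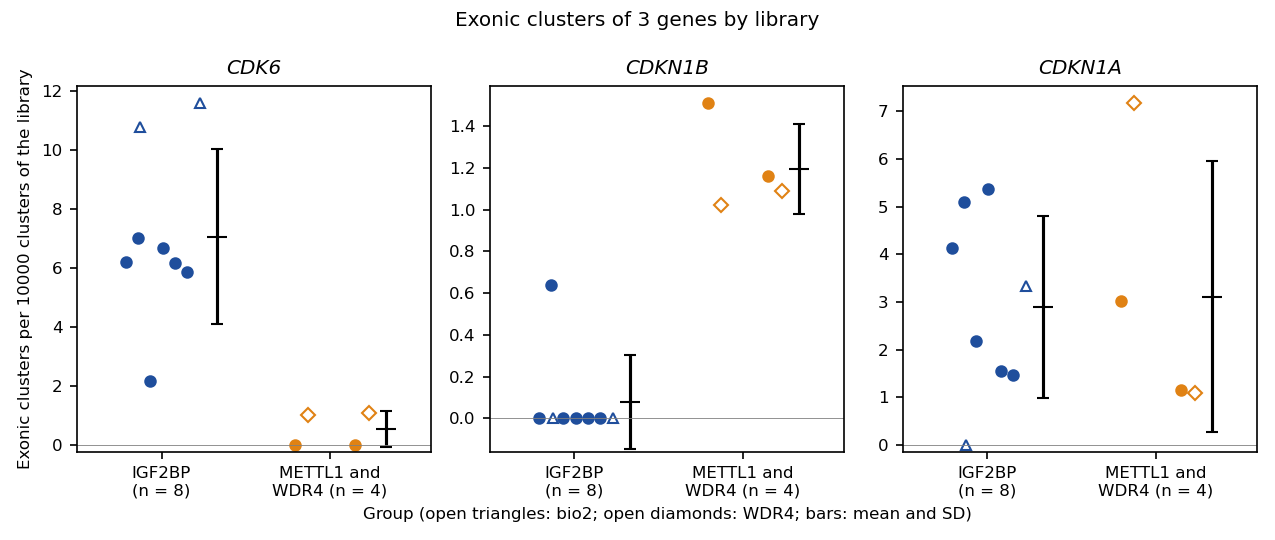
Exonic clusters per 10000 clusters of the library (y axis) of CDK6, CDKN1B and CDKN1A, 1 mark per library, in the 8 IGF2BP (blue, bio2 as open triangles) and 4 METTL1 and WDR4 libraries (orange, WDR4 as open diamonds), with group mean and SD in black. The groups separate for CDK6 (2.18 to 11.6 against 0 to 1.09) and, the other way, for CDKN1B (0 to 0.637 against 1.02 to 1.51), and overlap for CDKN1A.

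Of the CDC25 phosphatases, which activate CDKs, CDC25B had 1 cluster in each bio2 library at 1 3' UTR site and 1 in WDR4 replicate 2 elsewhere, CDC25C had 1 intronic cluster and CDC25A had none. In the RB-E2F group, RBL1 (p107) had 2 and 1 exonic clusters in IGF2BP1, 1 and 1 in IGF2BP3 and 1 in bio2 replicate 1. It had 0 in the other 7 libraries, and 5 of the 6 clusters lay at 1 coding site. The difference of 0.82 per 10000 did not pass (exact permutation test, adjusted p = 0.304). RBL1 reached the minimum of 4 libraries through the IGF2BP libraries alone, so that the sign of its difference was set by the filter. RB1 had 1 in IGF2BP1 replicate 2 and 1 in bio2 replicate 1. E2F1 had 1 in IGF2BP3 replicate 2 and 1 in bio2 replicate 1, at the same coding site. E2F3 had 1 in both IGF2BP1 libraries, IGF2BP2 replicate 1, both bio2 libraries, METTL1 replicate 1 and WDR4 replicate 1, and 0 in the other 5 (difference 0.21 per 10000, exact permutation test, adjusted p = 0.829). RBL2 and E2F2 had no cluster. MYC, the growth factor-responsive transcription factor, had 1 exonic cluster in IGF2BP1 replicate 2, IGF2BP2 replicate 2, bio2 replicate 1 and METTL1 replicate 1 and 2 in bio2 replicate 2, of which 1 site, in coding sequence, recurred between the bio2 libraries (difference 0.48 per 10000, exact permutation test, adjusted p = 0.659).

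Over the 15 cell cycle genes with an exonic cluster in at least 4 libraries (all genes 15.9%), 13 had a positive difference, as had 82.4% of the 3188 genes tested. The median difference was 0.801 per 10000 for the 15 and 0.736 for all genes tested. The scale bears on this: per 10000 exonic clusters of the library, 62.3% of the tested genes had a positive difference. On that scale the differences of CCND1, CCNT1, CDK12, CDK13 and E2F3 were below 0 as well as those of CDKN1A (-5.09) and CDKN1B (-3.76), and that of CDK6 was 10.07. By 3' UTR clusters alone 10 cell cycle genes were tested and CDK6 was called (exact permutation test, adjusted p = 0.0398), where 4.82% of tested genes were called higher in IGF2BP and 0.263% higher in METTL1 and WDR4 (110 and 6 genes). Per 10000 3' UTR clusters this split became 52 and 46 genes, and CDK6 was not among them (difference 15.13, exact permutation test, adjusted p = 0.141). CCNG1 came next, at 0.982 ± 0.78 (SD, n = 8) against 0 in each of the 4 METTL1 and WDR4 libraries (exact permutation test, p = 0.0444, adjusted p = 0.172). It reached the minimum of 4 libraries through the IGF2BP libraries alone, where it is high.

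The regions of the clusters are given as shares of each library, with no test. Of the clusters that IGF2BP libraries held in the 44 genes, 57.7% ± 5.27 (SD, n = 8) lay in the 3' UTR and 11.9% ± 2.16 in introns, against 51.2% ± 3.49 and 26.3% ± 4.09 for all protein-coding genes. For METTL1 and WDR4, 25.8% ± 8.14 (SD, n = 4) lay in the 3' UTR, 40.5% ± 5.43 in introns and 17.4% ± 6.75 in the 5' UTR, against 28% ± 1.14, 55.6% ± 4.76 and 3.73% ± 1.22 for all genes. Among exonic clusters the 3' UTR share was 65.6% ± 6.85 in IGF2BP libraries (all genes 69.8% ± 7.72) and 43.5% ± 13.8 in METTL1 and WDR4 libraries (all genes 63.3% ± 4.98). CDK6 alone carried part of the first value, as the pooled share was 66.5% with it and 58.1% without it. The 5' UTR clusters of METTL1 and WDR4 were 18, in 6 genes (all genes 2.62%): CCNE1, CCNG1, CCNI, CDK12, CDKN1B and E2F3. Most came from 3 genes. CCNG1 had 2 and 1 in METTL1 and 2 and 1 in WDR4, CDKN1B 1 in each, and CDK12 1 and 0 in METTL1 and 1 and 2 in WDR4. The share without these genes was not computed. Those of the IGF2BP libraries were 14 and lay in CCNG1 and CDK12 alone (all genes 1.51%).

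**Figure D5:**
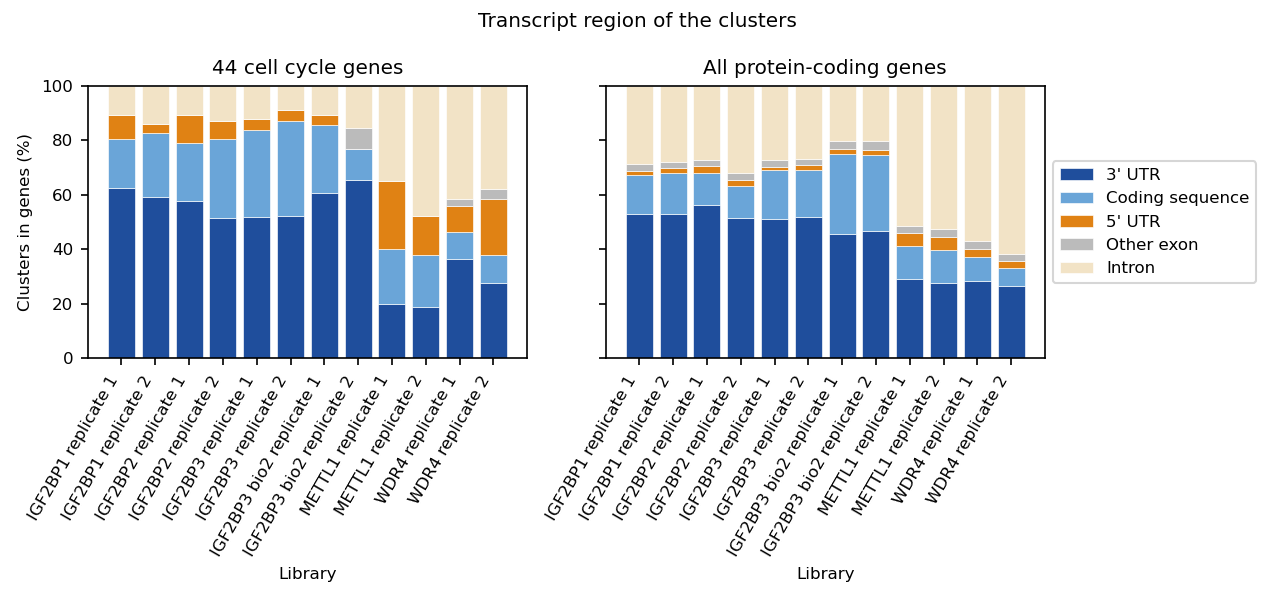
Share of clusters (y axis, percent) by transcript region in each library (x axis), for the 44 cell cycle genes (left) and all protein-coding genes (right). In both panels the intronic part is larger in the METTL1 and WDR4 libraries. The 5' UTR part of the cell cycle genes there averages 17.4% against 3.73% for all genes, and rests on 18 clusters in 6 genes.

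Reader and writer sites coincided in part. Merged over libraries, the IGF2BP libraries held 80 exonic sites in the 44 genes, of which 28 (35%) overlapped a METTL1 or WDR4 cluster, against 25.7% of 13853 sites over all genes. Without CDK6 this was 42.2%. From the other side, 29 of 48 METTL1 and WDR4 sites (60.4%) overlapped an IGF2BP cluster, against 50.3%. Of 99 exonic sites in total, 52 were held by IGF2BP libraries alone and 36 of these were in a 3' UTR, 19 by METTL1 and WDR4 libraries alone and 7 of these were in a 5' UTR, and 28 by both. The sites of the writers alone recurred least: 17 of the 19 were in 1 library, and those of CDKN1B and CCNL1 were the others. Replicates differed in this respect, since 79.2% of the sites seen in either of IGF2BP3 replicates 1 and 2 were seen in both, 60% in IGF2BP1, 51.6% in bio2, 33.3% in IGF2BP2, 27.3% in WDR4 and 20% in METTL1.

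In introns the difference was above 0 for 42.5% of the 1684 genes tested and for 2 of the 5 cell cycle genes tested. Scaled to 10000 intronic clusters of the library, it was above 0 for 62.5% of the genes tested. E2F3 had 1 intronic cluster in each IGF2BP1 and IGF2BP2 library and in IGF2BP3 replicates 1 and 2 not labelled bio2, 0 in bio2, 2 and 2 in METTL1 and 3 and 1 in WDR4, and its most shared site lay in 8 libraries. The scaled difference was -1.39 per 10000 (exact permutation test, p = 0.0263, adjusted p = 0.148). CDK19, the Mediator kinase, had 3 intronic clusters in METTL1 replicate 2 and 1 and 2 in WDR4, and CCNY had 2 in each of the same 3 libraries, with 0 in all IGF2BP libraries for both. Their placement may be uncertain in part. The central 20 nt of the 4 CCNY sites occur at a median of 3 to 796 places in the genome. Those of 2 of the 5 CDK19 sites occur at 1548 and 58262, counted for 20 nt and not for whole reads. CDK14 had 1 in IGF2BP1 replicate 2, both METTL1 libraries and WDR4 replicate 2 (difference -0.86, p = 0.0182, adjusted p = 0.119 by the same permutation test). It reached the minimum of 4 libraries mainly through METTL1 and WDR4, where it is high. Of 5 cell cycle genes tested on intronic clusters 0 passed by this test and 2 had an unadjusted p under 0.05, where 0.891% of tested genes were called higher in IGF2BP and 5.76% higher in METTL1 and WDR4. Intronic clusters were found in 10 of the 44 genes in IGF2BP libraries (all genes 14.6%) and in 18 in METTL1 and WDR4 libraries (25.5%). CDK6 had 10 intronic clusters, CDK12 9, CDK13 8, CDK7 and CDK8 2 each.

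In sequence, the CAU motif stood in 61.5% of the 239 exonic clusters of the 44 genes in IGF2BP libraries (59.2% of all exonic clusters) and in 22.7% of 66 in METTL1 and WDR4 libraries (37.2%). By protein it was 67.8% for IGF2BP3, 61.9% for IGF2BP1, 47.7% for IGF2BP2, 28.6% for WDR4 and 12.5% for METTL1, over 24 to 105 clusters. This is the order seen for all exonic clusters too, from 70% for IGF2BP3 to 35.7% for METTL1. Seed matches for 3 microRNAs were rare: CTACCTC (let-7) stood in 2 of the 305 exonic clusters (0.656%, all genes 1.55%), TGCTGCT (miR-15/16) in 4 (1.31%, all genes 0.293%) and ACACTCC (miR-122) in 6 (1.97%, all genes 0.945%). These 6 clusters are 1 site, in the 3' UTR of CCNYL1 and held by 6 libraries, so that the share counts it 6 times.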

How the data were processed

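Clusters of 12 PAR-CLIP libraries of HepG2 were analysed. As the methods of the study describe, the authors used the FASTX toolkit to filter, clip and collapse reads. Bowtie mapped them, keeping reads with several equally good placements up to a set limit and dropping those above it. PARalyzer then called the clusters. The submitters' processing notes name Bowtie and hg38. Versions and PARalyzer settings were not given in the sources used here. The deposited values are of another kind than counts: each line is the interval of 1 cluster of 1 library, with no score, so that depth per cluster is unknown and no count model was used. Starts were read as counted from 1, because the preceding base, after which RNase T1 cuts, was G for 74.5% to 94.7% of a library's intervals and the first base for 0.897% to 5.56%.

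Each cluster was classed in each gene by its midpoint on GENCODE 44, taking coding sequence before 3' UTR, 5' UTR, other exon and intron. Genes with a cluster of the class in at least 4 of 12 libraries were tested for the difference in mean clusters per 10000 clusters of the library between the 8 IGF2BP and the 4 METTL1 and WDR4 libraries, with a two-sided exact permutation test over all 495 splits, adjusted by Benjamini-Hochberg over all genes tested (threshold 0.05). The script was tested on simulated data. A site merges overlapping clusters (at least 1 nt) of a gene. The number of genome copies of the central 20 nt was counted on the main chromosomes. It is not the number of places where whole reads could map. Python 3.11.15, numpy 2.4.6, scipy 1.17.1, pandas 2.3.3 and pysam 0.24.0 were used.

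The genes, the lists and the tests were chosen with earlier results of these data known. All genes are accounted for: values in every library are given for genes with a reproducible site and for MYC and CCND1, others are named with counts. Sequences are those of each gene's most shared exonic site where at least 4 libraries held it, a minimum set after the values were seen, as was the choice to add the CCNG1 coding site. Same-numbered replicates did not deviate together (correlations from -0.06 to 0.0712 over 15 pairs of groups), so the numbers were not treated as pairs. Alternatives left out libraries or changed the scaling, filter, unit, annotation, width or copy number. The label bio2 is not explained in the labels and was left out as 1 alternative.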

Additional observations from a re-analysis of the deposited data

Results flagged for a closer look

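Values of 1 library that lay far from the others of its group were searched for in 60 groups of values, and 9 were found. The limit used lets through about 1 in 20 groups by chance for normally distributed values. The rate for values as sparse as these was not computed. All but those of CCNT1 are single libraries with 1 or 2 clusters among libraries with none or fewer. In exonic clusters per 10000 these were CCNB1 in WDR4 replicate 2 (1.09), CCNT2 in METTL1 replicate 2 (1.16), CDKN1B in IGF2BP1 replicate 2 (0.637), MYC in IGF2BP3 bio2 replicate 2 (3.33) and MYC in METTL1 replicate 1 (1.51). In 3' UTR clusters it was E2F3 in WDR4 replicate 1 (1.02), and in intronic clusters CDK14 in IGF2BP1 replicate 2 (0.637). CCNT1 stood highest in IGF2BP2 replicate 1, the library with the fewest clusters, at 8.73 exonic and 4.37 3' UTR clusters per 10000.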

How the results depend on the processing

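No count is available behind a cluster, so depth limits what the lack of a cluster means. The calls of single genes stood at the smallest p of the design, and the number of calls was therefore unstable. By the exact permutation test 149 genes passed for exonic, 116 for 3' UTR and 112 for intronic clusters. Leaving out 1 library gave 0 to 225 exonic, 0 to 162 3' UTR and 0 to 131 intronic calls, and the exonic calls of CDK6 and CDKN1B held only without IGF2BP2 replicate 1 and the 3' UTR call of CDK6 without either IGF2BP2 replicate. Without the bio2 libraries, with proteins as units (smallest p 0.1), by presence or absence, with no filter on genes, with clusters at or above the median width and after thinning each library to the smallest (20 draws), 0 genes passed in each of the 3 classes. The replicate block, which permutes within replicate numbers, also gave 0 calls in each class (663, 496 and 372 genes at an unadjusted p under 0.05). Unscaled numbers gave 0 exonic and 0 3' UTR calls, scaling to clusters of the same class gave 0 exonic calls, and clusters with a single-copy centre gave 0 exonic, 75 3' UTR and 0 intronic calls. A filter at 6 libraries gave 41 intronic calls. The cause of each loss was not tested. The exonic difference of CDK6 was above 0 in all 25 alternatives and that of CDKN1B below 0 in the 23 that gave it a value, that is in all but the filter at 6 libraries and the median width. Both stayed called by any overlap and with 1 transcript per gene, and CDK6 with the filter at 6 libraries.

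Exonic clusters were present in 25 to 27 of the 44 genes without 1 library, and in 14 at or above the median width (all genes 18.6%), where 8 had a reproducible site in place of 21 and the 3' UTR share was 55.7%. That share was 73.6% by any overlap and 73.3% with 3' UTR taken before coding sequence.

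Signs turned for genes that had not passed. Scaled to clusters of the same class, exonic differences per 10000 became -0.56 for CCND1, -0.38 for CCNT1, -2.48 for CDK12, -0.74 for CDK13 and -0.56 for E2F3, those in the 3' UTR -1.19 for CCND1, -0.45 for CCNT1 and -1.83 for CDK12, and the intronic one of CDK13 0.37. With a single-copy centre CCNYL1 came to -0.24 on both scales. CDKN1A, at -5.09 (exonic) and -7.19 (3' UTR) when scaled to clusters of the same class, turned positive without the bio2 libraries (0.19 exonic, 0.15 3' UTR), with proteins as units (0.21 and 0.18) and unscaled (0.12 and 0.12), and ranged without 1 library from -0.89 to 1.13 (exonic) and from -0.62 to 0.72 (3' UTR). Without 1 library CDK13 ranged from -0.18 to 0.32 (exonic) and from -0.52 to 0.19 (intronic), and E2F3 from -0.005 to 0.50. E2F3 came to -0.049 without the bio2 libraries, and CDK12 in the 3' UTR to -0.17 there and to -0.12 by presence or absence. At or above the median width the intronic differences were -0.018 for CDK12, 0.63 for CDK13 and 0.21 for E2F3.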
